A study of Mus musculus with 12 samples.

Results

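Gene desert peaks were the open chromatin regions of mouse skin and skin tumour cells that lay more than 200 kb from every protein-coding gene. They were taken from the authors' list of 177240 ATAC-seq peaks on mm10. A peak counted as a member when its midpoint lay on an autosome and over 200 kb outside the RefSeq span of every coding gene. Peaks whose paired-end total was over 3 times their single-end total were set aside, which removed 26 of 9878 candidates. The 9852 members made up 5.68% of the 173565 autosomal peaks that passed the same filter, and the other 163713 served for comparison. No measured difference between groups was used in this choice.

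ATAC-seq inserts sequencing adapters into accessible DNA, so that counts in a region report how open it was. The study profiled 6 FACS-sorted populations of female mice of mixed strain. Lgr5 Epcam- (1 sample) and Lgr5 Epcam+ (2 samples) came from tumours of mice carrying Lgr5CreER, p53fl/fl and Rosa-YFP+/+ among their alleles. K14 Epcam+ (1 sample) came from tumours with K14CreER in place of Lgr5CreER and the other alleles unchanged. HF (hair follicle, 1 sample) and IFE (interfollicular epidermis, 1 sample) were wild type. Both tumour models therefore share the loss of p53, and differ in the promoter that drives the tamoxifen-inducible Cre, which is active in basal keratinocytes for K14 and in follicle stem cells for Lgr5. The sort used antibodies to CD45, CD31, CD140a and Epcam, the last being an epithelial adhesion molecule. The number of animals behind a sample is not given in the sources used here, so a p-value here reflects variation among the samples profiled, possibly of technical origin. In bulk samples, fewer cells of a type and less accessibility per cell cannot be told apart.

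Gene deserts are long stretches of the genome without coding genes. Those beside regulators of development are known to hold distant enhancers, which loop to a promoter and switch it on in particular tissues. Enhancers are as a class more cell-type specific than promoters, and AP-1, a dimer of Fos and Jun proteins, is a common factor at enhancers of growth-stimulated cells and wounded skin. The nearest or flanking genes given here locate a peak and do not say which gene it regulates.

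Sequences are shown for desert peaks that hold the annotated start of a long non-coding RNA (lncRNA) and changed between Epcam+ tumours and normal skin. Peaks with such a start are the members for which RefSeq promoter windows could be read. Those shown had the 3 largest rises and the 3 largest falls among peaks above the median level on the autosomes considered. Not every autosome was considered for this choice. The windows are on GRCm38.p6, 5′ to 3′ on the strand of the transcript, with matches to the motifs searched on either strand in capitals, among them AP-1 (TGANTCA) and TEAD (GGAATG). TEAD factors are the DNA-binding partners of YAP.
Gm14062, chr2:137876782-137877081, minus strand: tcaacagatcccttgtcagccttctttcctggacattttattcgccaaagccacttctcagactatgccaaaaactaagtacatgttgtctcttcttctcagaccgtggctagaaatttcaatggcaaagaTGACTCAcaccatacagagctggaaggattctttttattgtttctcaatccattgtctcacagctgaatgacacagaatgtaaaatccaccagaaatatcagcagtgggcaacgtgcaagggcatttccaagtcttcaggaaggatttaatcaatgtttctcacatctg
Gm6634, chr3:70807242-70807541, minus strand: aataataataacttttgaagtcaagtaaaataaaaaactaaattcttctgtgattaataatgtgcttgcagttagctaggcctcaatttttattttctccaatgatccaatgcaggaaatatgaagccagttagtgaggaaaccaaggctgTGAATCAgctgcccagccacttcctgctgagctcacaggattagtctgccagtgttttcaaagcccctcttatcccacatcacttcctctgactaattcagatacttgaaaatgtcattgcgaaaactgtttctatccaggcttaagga
Gm41029, chr13:97538626-97538925, minus strand: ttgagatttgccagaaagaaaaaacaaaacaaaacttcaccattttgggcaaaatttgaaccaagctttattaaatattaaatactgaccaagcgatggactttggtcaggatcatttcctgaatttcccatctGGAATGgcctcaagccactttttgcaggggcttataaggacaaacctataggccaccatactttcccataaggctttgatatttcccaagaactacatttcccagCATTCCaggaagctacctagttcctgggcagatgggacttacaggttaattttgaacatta
4932435O22Rik, chr11:114448811-114449110, minus strand: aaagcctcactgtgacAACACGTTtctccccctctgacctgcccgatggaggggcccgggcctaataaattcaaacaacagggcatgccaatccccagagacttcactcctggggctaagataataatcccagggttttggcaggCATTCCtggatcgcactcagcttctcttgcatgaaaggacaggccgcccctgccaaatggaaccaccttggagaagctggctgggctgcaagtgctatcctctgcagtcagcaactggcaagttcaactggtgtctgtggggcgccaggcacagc
Gm11264, chr4:82065841-82066140, minus strand: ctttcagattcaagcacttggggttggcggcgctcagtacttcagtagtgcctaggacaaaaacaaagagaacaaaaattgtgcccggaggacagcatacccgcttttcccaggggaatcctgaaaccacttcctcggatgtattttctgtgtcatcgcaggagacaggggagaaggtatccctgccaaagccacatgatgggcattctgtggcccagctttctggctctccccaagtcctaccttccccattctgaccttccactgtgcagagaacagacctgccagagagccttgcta
Mir99ahg, chr16:77329078-77329377, plus strand: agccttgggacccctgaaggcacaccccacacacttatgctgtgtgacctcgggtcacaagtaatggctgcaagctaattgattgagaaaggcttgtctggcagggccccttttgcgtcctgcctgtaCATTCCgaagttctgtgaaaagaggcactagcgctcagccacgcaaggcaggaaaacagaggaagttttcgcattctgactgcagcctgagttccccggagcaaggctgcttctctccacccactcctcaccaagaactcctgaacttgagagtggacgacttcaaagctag
The first 3 lie in peaks that rose in Epcam+ tumours: Gm14062 and Gm6634 hold 1 AP-1 match each, and Gm41029 holds 2 TEAD matches and no AP-1 match. The other 3 lie in peaks that fell: 4932435O22Rik holds 1 TEAD and 1 GRHL match, Gm11264 no match and Mir99ahg 1 TEAD match.

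The peak with Gm14062 lies between Jag1, which encodes a Notch ligand, and Btbd3, 379.7 kb from Btbd3. It had 25.7 CPM in K14 Epcam+ and 31.9 and 33.2 CPM in Lgr5 Epcam+, against 2.72 CPM in HF and 4.96 CPM in IFE. CPM is the count in a region, scaled by the total of counts in peaks of that sample after a TMM adjustment. The total and the adjustment came from the chromosomes that gave the TMM offsets described under processing. Scaling by the unadjusted total was an alternative, named total-count scaling. Every Epcam+ tumour sample was above both normal samples, a rise of 2.98 ± 0.35 on the log2 scale (SE, edgeR adjusted p = 4.966e-05). Lgr5 Epcam- had 7.83 CPM, and its fall against Lgr5 Epcam+ was also called (log2 -2.06, adjusted p = 0.01027).

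The peak with Gm6634, 778.6 kb from Otol1, had 15.5 CPM in K14 Epcam+ and 16.2 and 19.99 CPM in Lgr5 Epcam+, against 2.17 CPM in HF and 1.44 CPM in IFE. It rose by 3.24 ± 0.43 (edgeR adjusted p = 0.0001242), with no overlap between tumour and normal samples. Lgr5 Epcam- was also high at 22.4 CPM. The peak with Gm11264, 224.1 kb from Nfib, went the other way. It had 3.19 CPM in K14 Epcam+ and 4.38 and 6.47 CPM in Lgr5 Epcam+, against 29.5 CPM in HF and 18.75 CPM in IFE (log2 -2.5, adjusted p = 0.0005617).

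The third riser, the peak with Gm41029, 285.5 kb from Enc1, had 15.5 CPM in K14 Epcam+ and 21.97 and 9.89 CPM in Lgr5 Epcam+, against 3.0 CPM in HF and 1.365 CPM in IFE (log2 2.95 ± 0.52, edgeR adjusted p = 0.000964). Tumour and normal samples did not overlap. The peak with 4932435O22Rik, 218.8 kb from Rpl38, had 2.63 CPM in K14 Epcam+ and 1.497 and 1.80 CPM in Lgr5 Epcam+, against 10.03 CPM in HF and 15.55 CPM in IFE, and fell by 2.58 on the log2 scale (adjusted p = 0.000975).

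The peak at the start of Mir99ahg, the host transcript of a miRNA cluster, separated the samples in another way. It had 2.88 CPM in K14 Epcam+ and 3.77 and 4.54 CPM in Lgr5 Epcam+, against 15.5 CPM in HF and 16.4 CPM in IFE, and Lgr5 Epcam- had 15.2 CPM. Thus Lgr5 Epcam- stood beside the normal samples. The fall in Epcam+ tumours was called (adjusted p = 0.002645), and so was the higher level in Lgr5 Epcam- than in Lgr5 Epcam+ (log2 1.87, adjusted p = 0.0403), but the second call was lost under DESeq2.

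In all, 113 lncRNA windows lay in 104 members. AP-1 was matched in 22.1% of them, against 9.31% of all 11587 lncRNA windows and 7.81% of all 32817 promoter windows. By direction in Epcam+ tumours against normal skin, 8 of 15 windows in peaks that rose had an AP-1 match and 1 of 18 in peaks that fell. GRHL (AAC, any 2 bases, GTT), the site of grainyhead-like epithelial factors, was matched in 8.85% of desert windows against 4.47% of all lncRNA windows. The TEAD shares were 20.4% and 16.6%, those of RUNX (TGTGGT) 19.5% and 20%, and those of ETS (CCGGAA) 3.54% and 7.94%. The desert windows all lie inside peaks, while the sets of all lncRNA windows and all promoter windows were taken whether in a peak or not. The part of this in the differences was not tested. Both strands were searched, and a match is a description of letters, not of binding.

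A further 8 members held a miRNA hairpin. Their mature sequences are shown for the peaks that were called or that lay in a gap described below, with the seed (bases 2 to 8) in capitals, from RefSeq on GRCm38.p6.
let-7c-5p, chr16:77599672-77599693, plus strand: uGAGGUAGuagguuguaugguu
miR-344d-3p, chr7:61685279-61685300, minus strand: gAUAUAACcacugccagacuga
miR-344b-3p, chr7:61790522-61790543, minus strand: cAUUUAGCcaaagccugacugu
miR-802-5p, chr16:93369737-93369758, plus strand: uCAGUAACaaagauucauccuu
The 3p arms of the miR-344 hairpins do not share 1 seed. On the 5p arm the seed GUCAGGC was common to 4 hairpins, Mir344, Mir344b, Mir344c and Mir344d-3.

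The peak over Mirlet7c-1, from the let-7 family known for restraining growth genes, had 1.26 CPM in K14 Epcam+ and 2.24 and 1.99 CPM in Lgr5 Epcam+, against 6.38 CPM in HF and 14.6 CPM in IFE. All Epcam+ tumour samples were below both normal samples, a fall of 2.56 on the log2 scale (edgeR adjusted p = 0.001203). Mir344d-2, in the desert between Gm51483 and Ndn on chromosome 7, had 8.84 CPM in Lgr5 Epcam-, against 1.04 and 1.48 CPM in Lgr5 Epcam+ (log2 2.81, adjusted p = 0.006917). The neighbouring Mir344d-3 had 3.77 CPM in Lgr5 Epcam-, against 0.299 and 0.928 CPM in Lgr5 Epcam+ (adjusted p = 0.02362), a call lost under loess scaling and under DESeq2. Mir344b rose in Epcam+ tumours against normal skin (log2 2.41, adjusted p = 0.005411). With the tumour samples pooled as 1 group, that call was lost when IFE, K14 Epcam+ or the first Lgr5 Epcam+ sample was left out. Mir344, Mir344c, Mir125b-1 and Mir802 did not pass either test. These are levels of open DNA, not of miRNA.

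Members were narrow and weak peaks. Their median width was 1036 bases (1001 to 4705), against 1102 for other peaks, and their median total count was 563 against 787. Their median distance from a coding gene was 331 kb. Of the members, 2250 (22.8%) lay over 500 kb away and 414 (4.2%) over 1 Mb. Chromosome 13 held the most, 948, and chromosome 19 the fewest, 117. lncRNA spans covered 18.3% of members and 12.3% of other peaks, while 80.9% of members overlapped no annotated gene of the kinds searched. Antigen receptor segments lay within 200 kb of 232 members, 188 of them on chromosome 12.

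Peaks were divided into 4 equal classes of mean level, and 41.8% of members lay in the lowest class and 11.1% in the highest. The mean is over the same 6 samples that are compared below, so class and direction of change are not independent. Members varied more between samples. The ratio of the highest to the lowest sample was at least 4 in 6616 members (67.2%), against 46.6% of other peaks, with medians of 5.21 and 3.76. These ratios were not split by level, and members were weaker, so the part of level was not tested. The highest of the 6 samples was Lgr5 Epcam- in 29.6% of members, against 22.4% of other peaks. The strongest members were open in every sample, but some were called in tested comparisons. The peak given next was called lower in Lgr5 Epcam- than in Lgr5 Epcam+ (log2 -1.24, edgeR adjusted p = 0.005129). The peak at chr13:72197961-72199277, 234.9 kb from the homeobox gene Irx1, had 35.65 CPM in Lgr5 Epcam-, 75.5 and 92.8 CPM in Lgr5 Epcam+, 57.3 CPM in K14 Epcam+, 87.7 CPM in HF and 59.3 CPM in IFE.

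Counts in peaks ran between 32086654 (HF) and 62941406 (Lgr5 Epcam+ sample 1) a sample. Desert peaks took 3.67% of them in Lgr5 Epcam-, 2.95% and 3.75% in Lgr5 Epcam+, 3.44% in K14 Epcam+, 3.73% in HF and 3.12% in IFE. In the single-end runs alone HF was highest, at 3.91%, against 3.89% in Lgr5 Epcam+ sample 2. With both runs summed, as given above, the 2 Lgr5 Epcam+ samples had the lowest and the highest share. With the background described next subtracted, IFE was lowest at 2.59% and Lgr5 Epcam+ had 2.72% and 3.56%. The share of desert counts that the density of counts outside peaks would account for, with a genome of 2700 Mb, was 22.6% in Lgr5 Epcam-, 16.5% and 16.1% in Lgr5 Epcam+ and 23.0% in K14 Epcam+, against 37.0% in HF and 33.2% in IFE. Each share of counts had a 95% exact binomial interval of under 0.01 points either way, which covers counting error only.

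**Figure D1:**
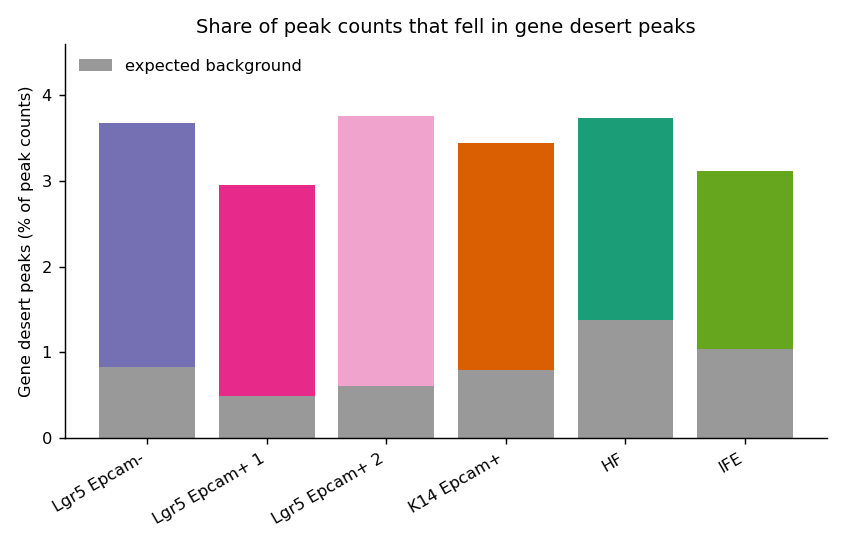
Share of all peak counts that fell in gene desert peaks, in percent, for each of the 6 samples (1 bar each); grey is the part expected from the density of counts outside peaks. With both runs summed on all chromosomes, Lgr5 Epcam+ sample 1 is lowest at 2.95% and sample 2 highest at 3.75%. The grey part is largest in HF and IFE.

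Markers bear on every comparison. Summed CPM over 6 epithelial genes was 467 in Lgr5 Epcam-, 1817 and 1310 in Lgr5 Epcam+, 1204 in K14 Epcam+, 1282 in HF and 1450 in IFE. Over 6 mesenchymal genes it was 775 in Lgr5 Epcam-, 410 and 458 in Lgr5 Epcam+, 371 in K14 Epcam+, 213 in HF and 190 in IFE. Peaks of fibroblast and pericyte genes (6) summed to 424 CPM in Lgr5 Epcam-, against 157 to 243 CPM in the other samples. Immune genes (6) ranged over 190 to 312 CPM. Endothelial genes (5) summed to 188 CPM in Lgr5 Epcam-, 347 and 267 in Lgr5 Epcam+, 327 in K14 Epcam+, 164 in HF and 204.5 in IFE. No gene of any list was at 0. Peaks of Lgr5, the follicle stem cell gene, summed to 227 CPM in HF and 53.3 CPM in IFE, and those of Krt1, an epidermal differentiation keratin gene, to 47.8 CPM in HF and 182 CPM in IFE, each as the labels would place them. Epcam peaks summed to 10.1 CPM in Lgr5 Epcam- and to 63.7 to 73.5 CPM in Epcam+ tumours. The part of other cell types in the results was not tested.

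Epcam+ tumours against normal skin compares the mean of K14 Epcam+ and Lgr5 Epcam+ with the mean of HF and IFE, and asks which desert regions open or close in tumour epithelium. Calls went both ways: 1570 members (15.9%) rose and 1776 (18%) fell. Among all 177238 peaks tested, 15.3% rose and 13.9% fell. The peaks that rose had medians of 8.94 CPM in K14 Epcam+ and 9.81 and 9.72 CPM in Lgr5 Epcam+, against 2.14 CPM in HF and 1.90 CPM in IFE. Those that fell had medians of 1.32 CPM in K14 Epcam+ and 0.990 and 1.36 CPM in Lgr5 Epcam+, against 5.27 CPM in HF and 4.63 CPM in IFE. Lgr5 Epcam-, outside this contrast, had 6.02 and 1.39 CPM in these sets. The share of calls that rose was 46.9%, and 57.5% with tumours and normals pooled and the first Lgr5 Epcam+ sample left out. In the lowest class of mean level, which held 41.8% of members, 1.07% of members rose and 23.7% fell. Other peaks of that class had 0.654% and 23.15%. In the highest class 50.5% of members rose and 10.2% fell, against 31.9% and 7.48% of other peaks. In every class both shares were larger among members than among other peaks. Class and direction are linked by construction, since the mean level includes the tumour samples.

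The member median was -0.16, against -0.01 over all peaks, but it was 0.20 under loess scaling by level and 0.08 with the expected background subtracted. All tests come from 1 edgeR quasi-likelihood fit with Benjamini-Hochberg adjustment at 0.05. Its spread comes from the 2 Lgr5 Epcam+ samples, and the single samples are assumed to vary like them. The comparisons share samples, so their calls are not independent.

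Large rises were seen at members with above-median levels. The peak at chr15:67780490-67781548, 302.7 kb from the zinc finger gene Zfat, had 28.8 CPM in K14 Epcam+ and 44.0 and 33.7 CPM in Lgr5 Epcam+, against 1.04 CPM in HF and 2.37 CPM in IFE. It rose by 4.41 ± 0.49 (edgeR adjusted p = 3.129e-05) and was high in Lgr5 Epcam- too, at 32.6 CPM. The peak at chr2:46230564-46231588 lies 1114 kb from Zeb2, which encodes a repressor of epithelial genes. It had 22.45 CPM in K14 Epcam+ and 30.05 and 26.45 CPM in Lgr5 Epcam+, against 1.48 CPM in HF and 1.04 CPM in IFE (log2 4.34, adjusted p = 8.741e-06). The peak at chr5:47502531-47503612, 478.2 kb from Slit2, a guidance ligand gene, had 26.95 CPM in K14 Epcam+ and 33.2 and 35.3 CPM in Lgr5 Epcam+, against 1.59 CPM in HF and 1.51 CPM in IFE (log2 4.29, adjusted p = 5.503e-06). These peaks were chosen from the largest rises, and tumour and normal samples did not overlap at any of them.

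Falls, chosen in the same way, were as large. The peak at chr2:74135667-74136856, 223.8 kb from Atp5g3 on the side of Lnpk, had 1.26 CPM in K14 Epcam+ and 1.24 and 1.54 CPM in Lgr5 Epcam+, against 30.96 CPM in HF and 30.6 CPM in IFE. It fell by 4.54 ± 0.44 (edgeR adjusted p = 1.296e-05), and Lgr5 Epcam- had 1.04 CPM. The peak at chr8:115952200-115953325, 245.9 kb from the transcription factor gene Maf, had 1.14 CPM in K14 Epcam+ and 1.57 and 1.97 CPM in Lgr5 Epcam+, against 31.6 CPM in HF and 20.4 CPM in IFE (log2 -4.16, adjusted p = 3.236e-05). The peak at chr13:11337901-11338993, 214.7 kb from the calcium channel gene Ryr2, fell by 4.07. In each case all tumour samples, Lgr5 Epcam- included, were below both normal samples. The next panels show these and other named peaks by sample.

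**Figure D2:**
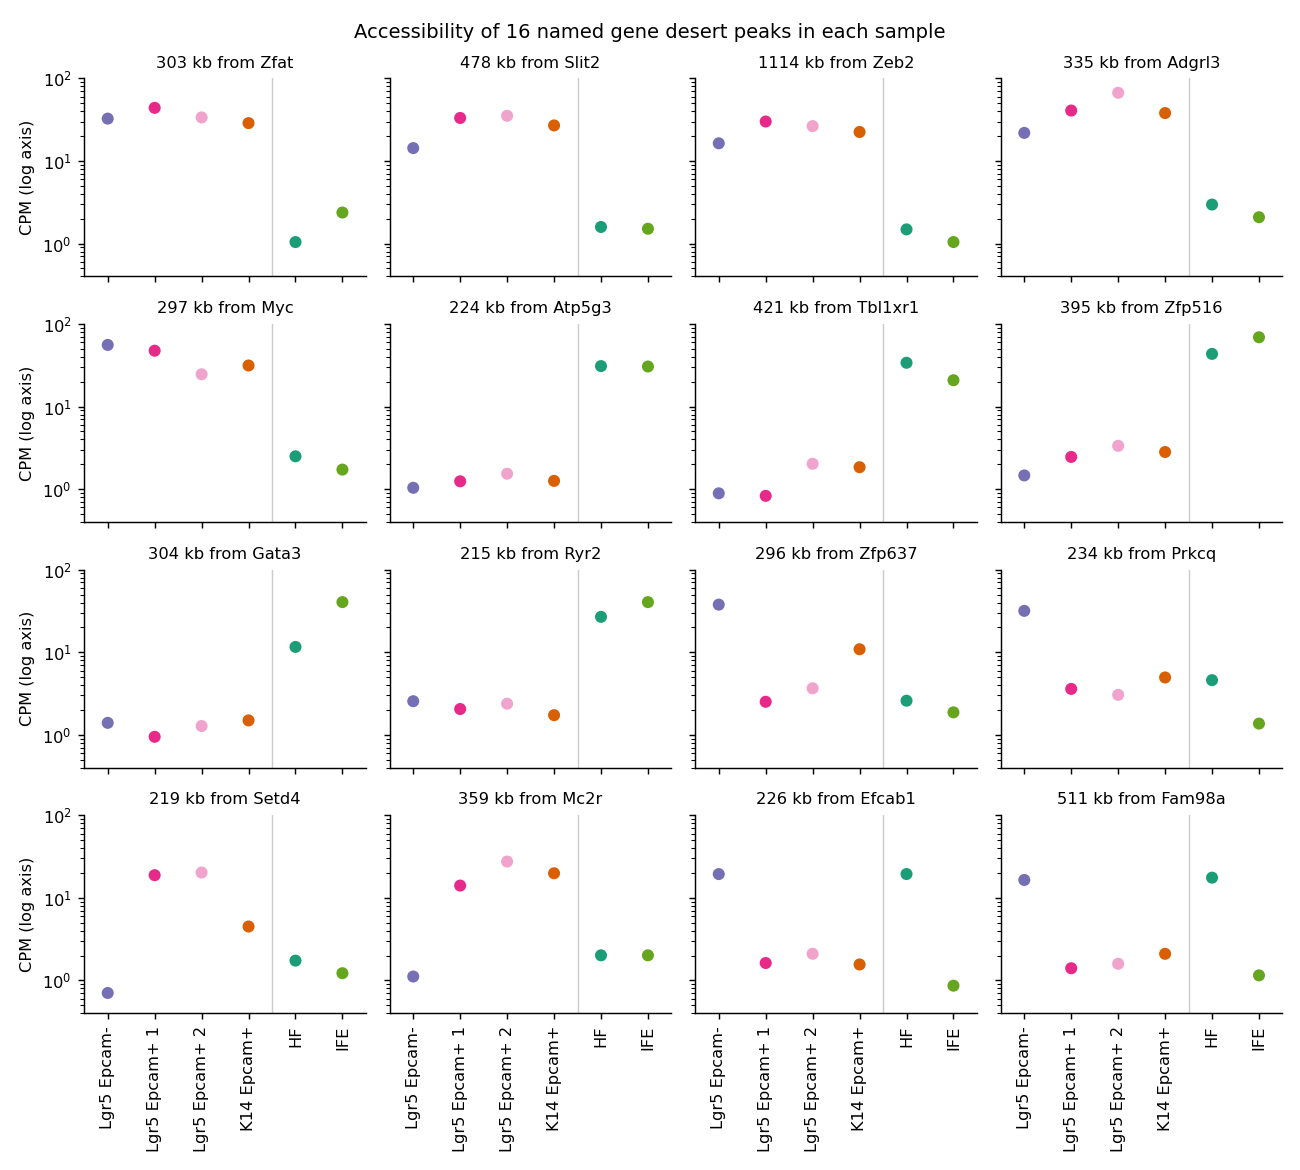
CPM (log axis) of 16 named gene desert peaks in each sample (1 point a sample); titles give the distance to the nearest coding gene, and the grey line divides tumour from normal samples. Peaks near Zfat, Slit2 and Zeb2 are high in all 4 tumour samples, those near Atp5g3, Zfp516 and Ryr2 in both normal samples, and those near Efcab1 and Fam98a in Lgr5 Epcam- and HF.

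Members lie in 632 gaps between neighbouring coding genes, with a median of 9 each. A list of 65 regulators known for distant enhancers or for roles in skin flanks 57 of these gaps, with 1583 members. In Epcam+ tumours against normal skin 267 of them (16.9%) rose and 358 (22.6%) fell, against 1303 (15.8%) and 1418 (17.2%) of the other 8269 members. Peaks of 1 gap share a locus and are not independent. Unless stated, the excess of one direction in each gap named next held in all 12 alternatives run. Flanks are the other peaks within 1 Mb on either side.

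In some gaps more members rose than fell. Between Jag1 and Btbd3 46 of 111 members rose and 14 fell, with a median of 0.73 against 0.50 in the flanks. Between the oncogene Myc and Gsdmc 26 of 99 rose and 6 fell, with a median of 0.70 against -0.29 in the flanks. Beside Runx1, which encodes a factor of follicle stem cell activation, 14 of 39 rose and 1 fell (median 1.07, flanks 0.08). Upstream of Sox9, which specifies follicle stem cells, 22 of 79 rose and 13 fell (median 0.45, flanks 0.26).

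Further gaps of this kind were smaller. Beside the T-box gene Tbx3 17 of 53 rose and 5 fell, and between Rnf144b and Id4, which encodes an inhibitor of bHLH factors, 13 of 49 rose and 5 fell. Beside Sox2 10 of 36 rose and 4 fell, and beside the nuclear receptor gene Nr2f2 9 of 26 rose and 1 fell. On the other side of Myc, towards A1bg, 9 of 72 rose and 14 fell, so the 2 deserts of Myc went opposite ways by count. The median there was 0.12 and changed sign under total-count scaling, loess scaling and with both runs summed on all chromosomes.

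In other gaps more members fell than rose. Between Celf2 and Gata3, a regulator of epidermal and inner root sheath differentiation, 5 of 105 members rose and 53 fell, with a median of -1.30 against -0.30 in the flanks. Summed CPM over that gap was 344 in K14 Epcam+ and 292 and 353 in Lgr5 Epcam+, against 571 in HF and 798 in IFE. Beside Klf4, a barrier factor gene, 18 of 103 rose and 42 fell (median -0.63, flanks -0.34). Between Slc10a2 and Efnb2, an ephrin ligand gene, 7 of 109 rose and 36 fell (median -0.85, flanks -0.55). Beside Nfib, a factor of follicle stem cells, 3 of 44 rose and 21 fell (median -1.38, flanks -0.43).

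Between Meis1 and Spred2 2 of 28 rose and 18 fell (median -1.51, flanks -0.01), and between the homeobox genes Irx2 and Irx4 0 of 12 rose and 10 fell (median -1.69, flanks 0.02). Beside Satb1, a chromatin organiser of epidermis, 0 of 16 rose and 11 fell (median -2.02), and the flanks were also low at -0.997. Beside the AP-2 gene Tfap2b the count was the same, 0 of 16 and 11 (median -1.91, flanks -0.71). In the Gata3 gap the peak at chr2:9553018-9554054, 303.5 kb from Gata3, had 1.49 CPM in K14 Epcam+ and 0.944 and 1.28 CPM in Lgr5 Epcam+, against 11.6 CPM in HF and 40.5 CPM in IFE. It fell by 4.07 ± 0.47 (edgeR adjusted p = 4.25e-05), and IFE was the highest sample.

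The largest group of members, 188 peaks between Adam6a and Zfp386 among the immunoglobulin heavy chain segments on chromosome 12, was less stable. There 5 rose and 31 fell, with a median of -1.01 against 0.10 in the flanks, but the count that fell ran between 0 and 90 over the alternatives. The excess was lost in pooled groups without HF or without the first Lgr5 Epcam+ sample. Between Zeb2 and Acvr2a, the next in size, 33 of 136 rose and 31 fell, with no stable direction.

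**Figure D3:**
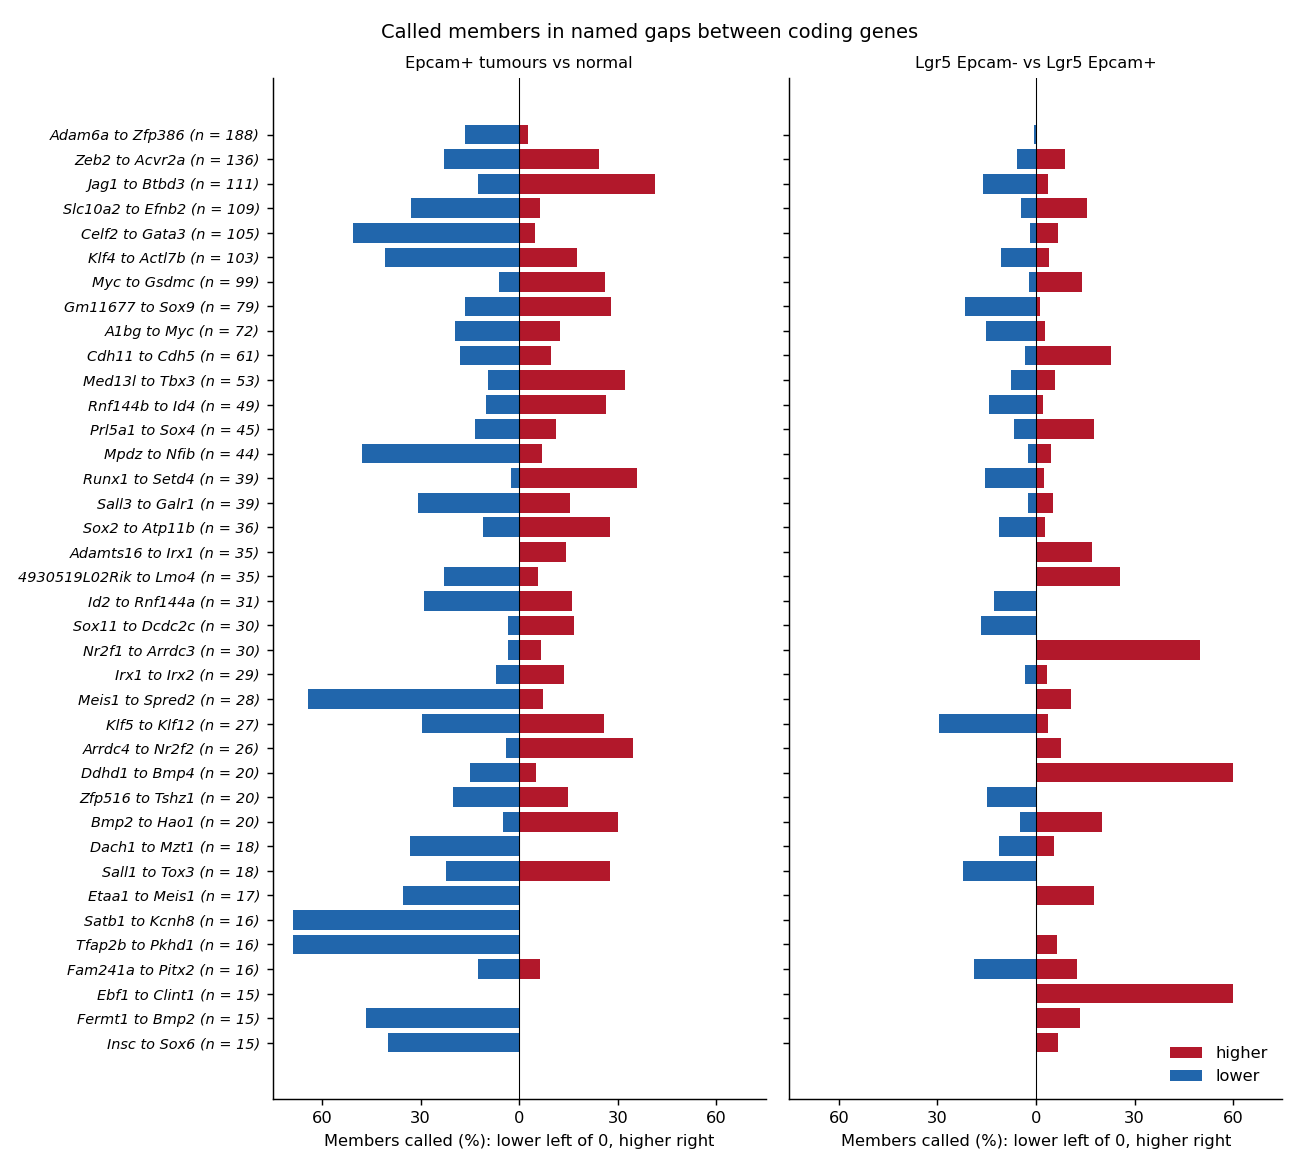
Percent of the members of each named gap with at least 15 members that were called higher (right of 0) or lower (left of 0) in Epcam+ tumours against normal skin and in Lgr5 Epcam- against Lgr5 Epcam+. Celf2 to Gata3 leans to lower and Jag1 to Btbd3 to higher in the first panel, and Ddhd1 to Bmp4, Ebf1 to Clint1 and Nr2f1 to Arrdc3 lean to higher in the second.

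Lgr5 Epcam- against Lgr5 Epcam+ compares tumour cells that lack Epcam with those that carry it, both begun by Lgr5CreER. Desert peaks leaned to the Epcam- side: 1372 members (13.9%) were higher in Lgr5 Epcam- and 477 (4.84%) lower, against 6.58% and 5.49% of all peaks. The higher members had a median of 5.83 CPM in Lgr5 Epcam-, against 0.875 and 1.19 CPM in Lgr5 Epcam+, with 1.41 CPM in K14 Epcam+, 1.86 CPM in HF and 1.55 CPM in IFE. So the set was low in each of the other 5 samples. The lower members had a median of 2.05 CPM in Lgr5 Epcam-, against 14 and 14.1 CPM in Lgr5 Epcam+, and 10.4 CPM in K14 Epcam+.

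The lean depends on the model: 74.2% of calls were higher, but 51.55% under DESeq2, which called 514 higher and 483 lower. Under loess scaling 697 were higher. The member median was 0.15, against -0.04 over all peaks, and -0.05 under loess scaling. Mesenchymal and fibroblast markers were highest in the same Lgr5 Epcam- sample, and their part in this result was not tested.

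The share of peaks higher in Lgr5 Epcam- was larger far from coding genes than near them. It was 6.24% inside coding genes, 4.57% up to 50 kb outside them and 9.75% at 50 to 200 kb. Among members it was 11.9% at 200 to 300 kb, 15.27% at 300 to 500 kb, 15.25% at 500 kb to 1 Mb and 16.4% beyond 1 Mb. The share that was lower was 4.97% inside genes and 3.87% beyond 1 Mb. Members were also weaker than other peaks, and the share higher in Lgr5 Epcam- fell with level. It was 24.1% of members and 13.3% of other peaks in the lowest class of mean level. From there it went to 10.3% and 7.01%, then 4.49% and 3.76%, and 1.83% and 0.976% in the highest class. Level is a mean over all samples, so peaks low in every sample but Lgr5 Epcam- tend to a low class by construction. Bins of distance were not split by level, so the part of level in the pattern with distance was not tested.

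The 2 Lgr5 Epcam+ samples themselves differed with distance. By a rule of size, a log2 ratio of at least 2 and at least 1 in each run, 50 members were higher and 316 (3.21%) lower in sample 1 than in sample 2, against 0.583% and 1% of all peaks. The lower share was 0.742% inside coding genes and 6.28% beyond 1 Mb. The member median between these samples was -0.34, larger in size than the member medians of the tested comparisons. Leaving out sample 2 moved the median of Lgr5 Epcam- against Lgr5 Epcam+ to 0.40, and leaving out sample 1 to 0.04.

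**Figure D4:**
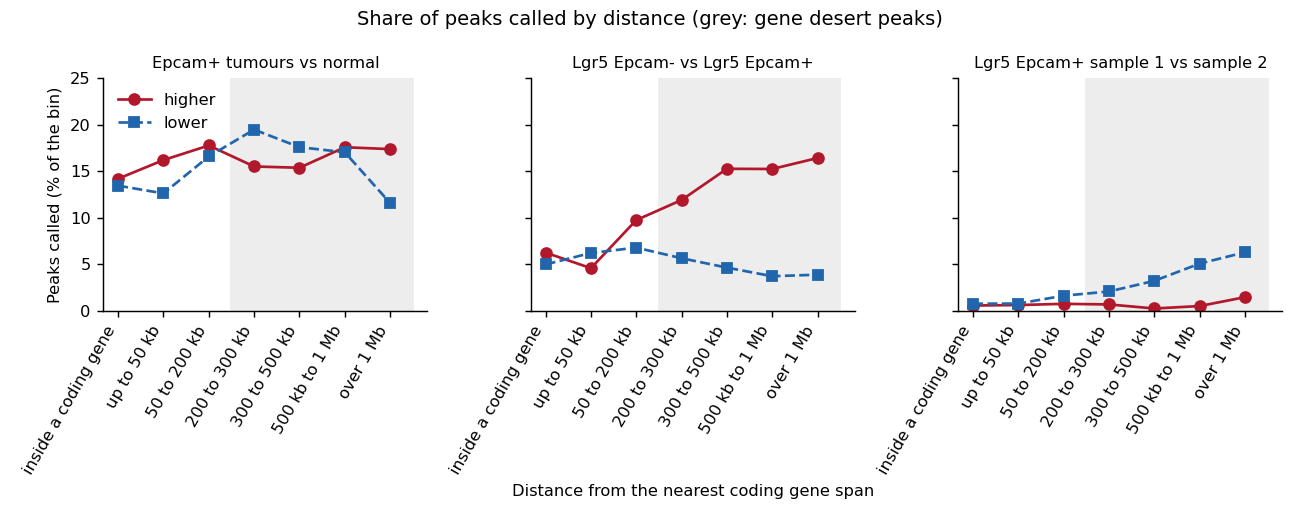
Percent of autosomal peaks called higher (red circles) or lower (blue squares) by distance from the nearest coding gene span, for 2 tested comparisons and, by the rule of size, between the 2 Lgr5 Epcam+ samples; gene desert bins are shaded grey. The share higher in Lgr5 Epcam- grows to 16.4% beyond 1 Mb, and the share lower in Lgr5 Epcam+ sample 1 than in sample 2 grows to 6.28%.

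Members in gaps flanked by a listed gene leaned less to Lgr5 Epcam- than the others did. Of these 1583 members, 166 (10.5%) were higher in Lgr5 Epcam- than in Lgr5 Epcam+ and 115 (7.27%) lower. Among the other 8269 members 1206 (14.6%) were higher and 362 (4.38%) lower. Some listed gaps still held mostly higher members. Between Ddhd1 and Bmp4, a growth factor gene of skin mesenchyme, 12 of 20 members were higher in Lgr5 Epcam- and 0 lower. Their median was 2.18, against -0.01 in the flanks, and their summed CPM was 163 in Lgr5 Epcam-, against 60.2 and 35.5 in Lgr5 Epcam+. Between the nuclear receptor gene Nr2f1 and Arrdc3 15 of 30 were higher and 0 lower (median 1.98, flanks -0.03). Beside Ebf1, which encodes a factor of B cells and mesenchyme, 9 of 15 were higher and 0 lower, with a median of 2.20 and flanks also raised at 0.91.

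Beside Cdh11, a mesenchymal cadherin gene, 14 of 61 members were higher and 2 lower, and beside Lmo4 9 of 35 and 0. The gap of Tbx18 had 3 of 9 higher and 0 lower. The excess in these 6 gaps held in all 6 alternatives. Between Myc and Gsdmc 14 of 99 were higher and 2 lower, but that excess was lost under DESeq2.

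In other gaps more members were lower in Lgr5 Epcam-. Upstream of Sox9 1 of 79 members was higher and 17 were lower (median -0.81, flanks -0.28), and between Klf5 and Klf12, with Klf5 a factor of epithelial proliferation, 1 of 27 was higher and 8 lower (median -1.37, flanks -0.12). Between Jag1 and Btbd3 4 were higher and 18 lower, with flanks at -0.83. Beside Runx1 1 was higher and 6 lower, and beside Sox11 0 of 30 was higher and 5 lower. On the A1bg side of Myc 2 were higher and 11 lower. The excess of lower members in these gaps held in all 6 alternatives. Not every gap beside a listed gene leaned this way, but the next 2 were less stable. Between Celf2 and Gata3 7 were higher and 2 lower (median 0.25, flanks 0.90), an excess lost under DESeq2. Beside Nfib 2 were higher and 1 lower, an excess lost under loess scaling, paired-end runs alone and DESeq2.

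Single peaks were sharply divided. The peak at chr6:117544191-117545212, 295.9 kb from Zfp637 in the gap next to the stromal chemokine gene Cxcl12, had 37.7 CPM in Lgr5 Epcam-, against 2.51 and 3.66 CPM in Lgr5 Epcam+ (log2 3.61 ± 0.53, edgeR adjusted p = 0.00145). K14 Epcam+ was next at 10.9 CPM. The peak at chr16:93363550-93364697, in the gap between Runx1 and Setd4, had 0.704 CPM in Lgr5 Epcam-, against 18.8 and 20.3 CPM in Lgr5 Epcam+ (log2 -4.78 ± 0.78, adjusted p = 0.002468). It had 4.50 CPM in K14 Epcam+, 1.74 CPM in HF and 1.22 CPM in IFE, so the Lgr5 Epcam+ pair stood above every other sample. The miR-802 hairpin printed above lies in the same gap, and its peak had 3.34 CPM in Lgr5 Epcam-, against 11.4 and 16.8 CPM in Lgr5 Epcam+ (adjusted p = 0.05307).

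Some peaks were shared by Lgr5 Epcam- and normal hair follicle. The peak at chr17:76062729-76063819, 511.3 kb from Fam98a, had 16.5 CPM in Lgr5 Epcam-, against 1.40 and 1.59 CPM in Lgr5 Epcam+ (log2 3.46, edgeR adjusted p = 0.002766), with 2.10 CPM in K14 Epcam+, 17.6 CPM in HF and 1.15 CPM in IFE. The peak at chr16:15194978-15196228, 226.5 kb from Efcab1, had 19.4 CPM in Lgr5 Epcam-, against 1.62 and 2.10 CPM in Lgr5 Epcam+ (log2 3.38, adjusted p = 0.003102), with 1.56 CPM in K14 Epcam+, 19.4 CPM in HF and 0.863 CPM in IFE. Both were low in the other 4 samples.

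Lgr5 Epcam+ against HF sets tumour cells begun in Lgr5-expressing follicle cells beside normal follicle. Here 909 members (9.23%) rose and 1203 (12.2%) fell, against 9.37% and 7.47% of all peaks. The share of calls that rose was 43.0%, but 28.7% under total-count scaling and 60.6% under DESeq2. The member median was -0.29, against 0.01 over all peaks, and 0.19 under loess scaling, so it has no fixed direction. The share that fell was 6.79% inside coding genes, 13.3% at 200 to 300 kb and 6.04% beyond 1 Mb. In the lowest class of mean level 0.121% of members rose and 15.6% fell, against 0.155% and 12.6% of other peaks. In the highest class 43.7% of members rose and 6.22% fell, against 27.15% and 2.89% of other peaks. Here too class and direction are linked by construction. The peak at chr3:21654962-21655997, 420.8 kb from Tbl1xr1, had 0.829 and 2.03 CPM in Lgr5 Epcam+, against 34.0 CPM in HF (log2 -4.58 ± 0.59, edgeR adjusted p = 0.0003136).

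Lgr5 Epcam+ against K14 Epcam+ compares tumours by the cell of origin. By edgeR 0 members rose and 0 fell, against 0.00113% and 0.00564% of all peaks. At an unadjusted p under 0.05 there were 698 members, of 8297 peaks in all. DESeq2 called 2 members higher, and total-count scaling 2 lower. With 1 K14 Epcam+ sample this does not show that the desert peaks were alike.

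Comparisons of 1 sample with 1, with no replicate on either side, were described by the rule of size above and not tested. K14 Epcam+ against IFE had 935 members higher (9.49%) and 704 lower (7.15%), against 7.41% and 5.96% of all peaks. The peak at chr5:80683311-80684395, 335.2 kb from the adhesion receptor gene Adgrl3, had 38.05 CPM in K14 Epcam+, against 2.08 CPM in IFE. Lgr5 Epcam- against HF had 1046 higher (10.6%) and 926 lower (9.40%), against 7.51% and 6.58%. The peak at chr15:62286712-62287799, 296.9 kb from Myc, had 55.9 CPM in Lgr5 Epcam-, against 2.5 CPM in HF. It was high in every tumour sample, with 47.5 and 24.6 CPM in Lgr5 Epcam+ and 31.5 CPM in K14 Epcam+.

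HF against IFE compares the 2 normal compartments. The 354 members higher in HF (3.59%) outnumbered the 80 lower (0.812%), against 1.72% and 0.748% of all peaks. The higher set had a median of 11.7 CPM in HF, against 1.99 CPM in IFE, and in 40 of the 354 (11.3%) Lgr5 Epcam- was over 2 times each Epcam+ tumour sample, against 10.66% of other peaks higher in HF. The lower set had 3.52 CPM in HF, against 15.9 CPM in IFE. The peak at chr8:103492857-103493923, 608.2 kb from Cdh5 in the gap shared with Cdh11, had 31.5 CPM in HF, against 2.34 CPM in IFE, and 11 of the 61 members of that gap were higher in HF and 0 lower. The peak at chr16:51810706-51811876, 219.9 kb from the ubiquitin ligase gene Cblb, had 5.20 CPM in HF, against 35.9 CPM in IFE. The plot of called sets gives the medians by sample.

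**Figure D5:**
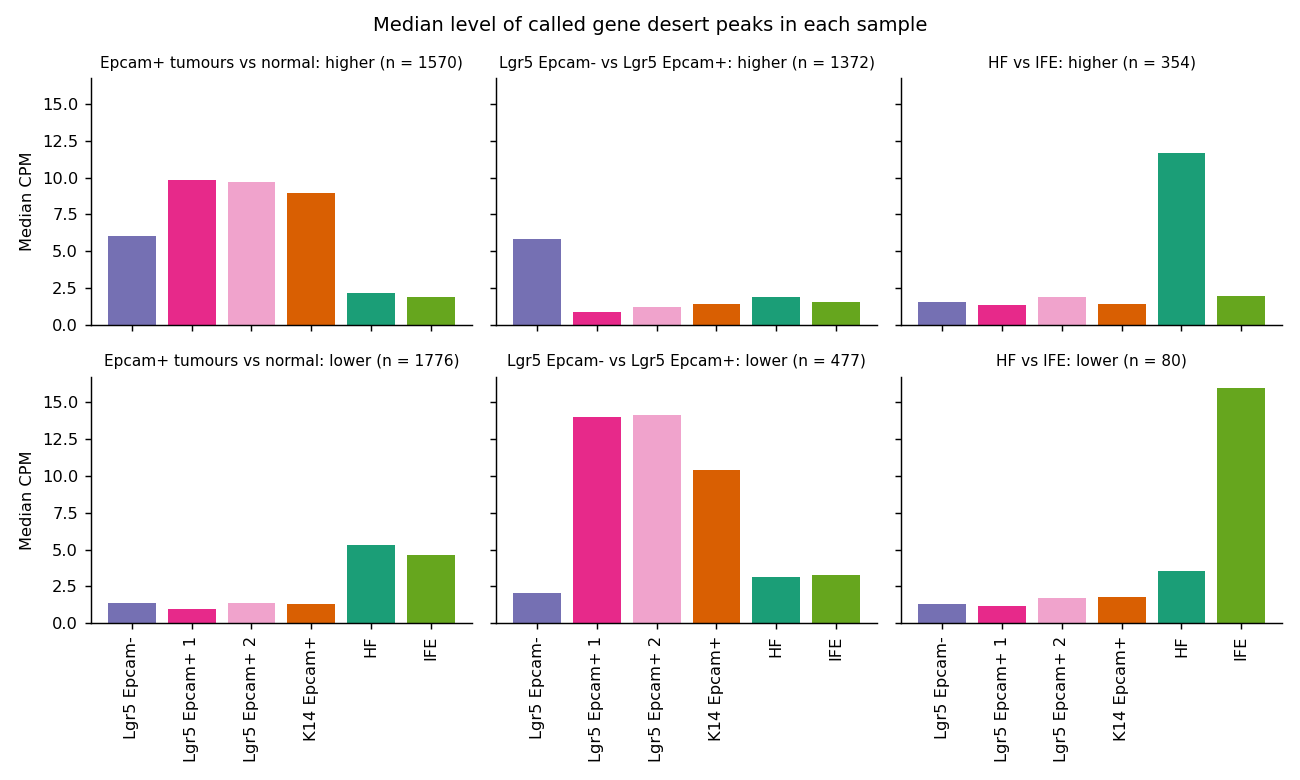
Median CPM of called gene desert peaks in each sample (bars from 0), for peaks higher (top) and lower (bottom) in 3 comparisons; HF against IFE is by the rule of size. Peaks higher in Lgr5 Epcam- than in Lgr5 Epcam+ are low in the other 5 samples, while peaks higher in Epcam+ tumours than in normal skin also have 6.02 CPM in Lgr5 Epcam-.

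Just inside the distance limit, a peak near Adgrl2 had 1.10 CPM in Lgr5 Epcam-, 1.06 and 1.28 CPM in Lgr5 Epcam+, 2.28 CPM in K14 Epcam+, 4.03 CPM in HF and 8.76 CPM in IFE, and a peak near Zeb2 ranged over 0.761 to 5.08 CPM. Just outside it, a peak near Maf ranged over 4.76 to 8.45 CPM and a peak near Tmpo over 0.691 to 2.83 CPM. The member farthest from a coding gene, 2240 kb from Celf4 on chromosome 18, had 0.762 CPM in Lgr5 Epcam-, 1.49 and 3.18 CPM in Lgr5 Epcam+, 0.899 CPM in K14 Epcam+, 2.5 CPM in HF and 1.08 CPM in IFE, and was called in no tested comparison.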

How the data were processed

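ATAC-seq counts per peak were deposited by the authors for 6 samples in 12 runs, 1 single-end and 1 paired-end run each. Per the submitters' processing notes, Bowtie2, HOMER, bedtools and HTSeq were used on mm10; the sources used here give no roles or versions for them. Runs were summed on chromosomes 1 to 14, and paired-end counts alone were used from chromosome 15 on, where single-end counts of K14 Epcam+ drop. The exceptions were the desert shares of counts, the background shares and the total counts of peaks. These used both runs on all chromosomes. A genome was not used here, so no sequence under peaks was read. Peaks with at least 10 counts by edgeR's filter were tested, 177238 in all, including every member. edgeR 4.0.16 (limma 3.58.1, R 4.3.3) fitted 5 groups, leaving 1 residual degree of freedom, with TMM offsets from chromosomes 1 to 14. DESeq2 1.42.0 was an alternative. Log2 ratios without a test used a prior count of 2. The fit was tested on simulated data. Some genotype details and some gaps are not reported here.

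Members, gene lists and tests were chosen with earlier results of these data known. Named peaks were the called members with the largest log2 change above the median level, 1 per gap, and those highest, farthest or next to the limit; named gaps were the 6 with most members and those flanked by a listed gene. Peaks with an lncRNA or miRNA and the extra values of single gaps were chosen after their values were seen.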

Additional observations from a re-analysis of the deposited data

How the results depend on the processing

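Limiting members to those over 500 kb from a coding gene left 2250, by construction with fewer calls: 212 higher and 241 lower in Lgr5 Epcam+ against HF, 348 and 84 in Lgr5 Epcam- against Lgr5 Epcam+, 395 and 361 in Epcam+ tumours against normal skin, 256 and 154 in K14 Epcam+ against IFE, 279 and 175 in Lgr5 Epcam- against HF, and 68 and 11 in HF against IFE. Total-count scaling gave 1922 lower in Lgr5 Epcam+ against HF, 2 lower in Lgr5 Epcam+ against K14 Epcam+ and 53 lower in HF against IFE. It shifted the median of all peaks by -0.33, 0.19, -0.19 and -0.17 in the 4 tested comparisons in the order Lgr5 Epcam+ against HF, Lgr5 Epcam- against Lgr5 Epcam+, Lgr5 Epcam+ against K14 Epcam+ and Epcam+ tumours against normal skin. Loess scaling gave 472 higher in Lgr5 Epcam+ against HF and 697 higher in Lgr5 Epcam- against Lgr5 Epcam+. The paired-end runs alone gave 150 lower in HF against IFE. DESeq2 gave 640 lower in Lgr5 Epcam+ against HF, 514 higher in Lgr5 Epcam- against Lgr5 Epcam+, 2 higher in Lgr5 Epcam+ against K14 Epcam+ and 1066 lower in Epcam+ tumours against normal skin. With the tumour and normal samples pooled as groups of 3 and 2, which gave 1542 higher and 2006 lower, leaving out 1 sample at a time gave 954 to 1512 higher and 791 to 1862 lower.

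Member medians changed sign under some settings. K14 Epcam+ against IFE had 0.033 beyond 500 kb, 0.16 with loess, 0.016 with paired-end runs and 0.20 with background subtracted. Lgr5 Epcam- against HF had -0.11 with total counts. Under loess, Lgr5 Epcam+ against HF had 0.19, Lgr5 Epcam- against Lgr5 Epcam+ -0.052, Lgr5 Epcam+ against K14 Epcam+ 0.10 and Epcam+ tumours against normal skin 0.20. The last had 0.077 with background subtracted. Without Lgr5 Epcam+ sample 1 or sample 2, Lgr5 Epcam+ against K14 Epcam+ had 0.0481 or -0.2539. The cause was not tested. Of the comparisons of named peaks with an alternative, 414 kept direction and call, 6 lost the call and 0 reversed. Of the counts of calls per named gap, 2370 stayed within 1.5 times and 510 moved further. Leaving out an Lgr5 Epcam+ sample in the 5-group fit leaves no residual degree of freedom, so only medians were recomputed there, and leaving out another sample was not run in that fit. No paired analysis was run because the labels give no pairing. They do not say whether Lgr5 Epcam- and an Lgr5 Epcam+ sample came from the same tumours. Alternatives with pooled groups and without receptor members were chosen after seeing the data. Weak members limit precision, since their median total over 6 samples was 563 counts.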

Other observations

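Members near antigen receptor segments, which code for antibodies and T cell receptors and rearrange in lymphocytes, differed between samples. The 188 on chromosome 12 had a median of 2.37 CPM in Lgr5 Epcam-, 1.82 and 2.64 CPM in Lgr5 Epcam+ and 3.12 CPM in K14 Epcam+, against 5.67 CPM in HF and 4.26 CPM in IFE. The 19 on chromosome 14 were highest in Lgr5 Epcam-, with a median of 5.16 CPM, against 1.68 to 2.66 CPM in the other samples. Without all 232 such members, 1557 members rose and 1742 fell in Epcam+ tumours against normal skin.

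Among smaller gaps outside the text above, that between Dach1 and Mzt1 had 0 of 18 members that rose in Epcam+ tumours against normal skin and 6 that fell. Between Fermt1 and the growth factor gene Bmp2 0 of 15 rose and 7 fell, while on the Hao1 side of Bmp2 6 of 20 rose and 1 fell.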
